A study of Homo sapiens with 12 samples.

Results

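SIN3 scaffolds and SIN3-specific subunits are 10 listed genes: SINHCAF (FAM60A), SUDS3 (SDS3), SIN3A, SIN3B, SAP30, SAP30L, BRMS1, BRMS1L, ARID4A and ARID4B. The members were found by taking every probe set, a group of short array probes read as 1 signal, that the platform annotation assigns to 1 of these genes alone. This gave 26 probe sets for 8 genes, of 19775 genes named in all. BRMS1L and ARID4A had no listed probe set and were not analysed here. The cells were A549, a human lung adenocarcinoma line, lysed 3 days after transfection with 50 nM siRNA. One experiment set 3 arrays of cells given an SDS3 siRNA against 3 arrays of cells given a non-targeting siRNA. The other set 3 arrays of cells given a FAM60A siRNA against 3 further non-targeting arrays. No control array served both experiments, and no untransfected cells were analysed here. The treatment protocol names 1 siRNA for FAM60A and the non-targeting siRNA, and it does not name the one for SDS3. With 1 siRNA for a gene, effects of losing the target and effects of that siRNA on other transcripts cannot be told apart.

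The SIN3 complex is a co-repressor: it has no known sequence-specific DNA binding of its own and is brought to promoters by transcription factors and by subunits that read histone marks. SIN3A and SIN3B are alternative scaffolds whose paired amphipathic helix domains hold the other proteins, including the histone deacetylases HDAC1 and HDAC2. SUDS3, BRMS1 and BRMS1L belong to one family of scaffold-bound subunits, SAP30 and SAP30L are related adaptors, ARID4A and ARID4B carry chromatin-binding domains, and SINHCAF is a subunit that lacks such relatives in the complex. In cultured cells the complex is known for roles in the cell cycle and in restraint of genes of invasion and matrix.

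Values are log2 of the deposited signal, and a log2 change is knockdown minus control. Array medians ran from 96.82 to 98.32 in the SDS3 experiment and from 186 to 192.6 in the FAM60A experiment, so levels were set side by side only within an experiment. Different probe sets bind with different strength, so no gene's level was set against another gene's. The A549 label was checked on marker genes. Of 10 genes typical of the line, 8 lay above the array's 75th percentile on all 12 arrays, and EPCAM and CDH1 did so on 9. None of the 8 leukocyte, endothelial and fibroblast markers with a probe set did so on any array. PTPRC and CDH5 were above the array median on 0 arrays, LUM and PDGFRA on 3 each and DCN on 6. CD3E, PECAM1 and VWF were above the median on all 12, so these markers were not all at the low end. CDKN2A, known to be deleted in A549, was above the 75th percentile on 0 arrays but above the median on all 12, so its signal was not at the low end. No label ties the triplicates to independent cultures. The p-values therefore reflect scatter among these arrays alone, part or all of which may be technical. The arrays read bulk RNA, in which fewer cells of a type and less RNA per cell cannot be told apart.

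SDS3 knockdown lowered SUDS3 and raised SIN3A, SIN3B (2 of 3 probe sets), SINHCAF (1 of 2) and SAP30L (1 of 6). FAM60A knockdown lowered SINHCAF and BRMS1 and raised SIN3B (2 of 3 probe sets) and SAP30L (2 of 6). These calls are on the deposited scale. Under a scaling to control probe sets for Bacillus transcripts, chosen after seeing the data and given below, the SDS3 rises did not pass. The FAM60A calls stood under it. Taking each gene by its brightest probe set, 4 of 8 genes rose and 1, the targeted SUDS3, fell after SDS3 knockdown (limma, adjusted p under 0.05). The same test called 30.0% of all 18626 genes, 13.4% higher and 16.6% lower. After FAM60A knockdown 2 of 8 rose and 2 fell, the targeted SINHCAF among them, against 32.6% of all genes in either direction, 17.4% higher and 15.2% lower. The median log2 change of the 8 genes was 0.22 after SDS3 knockdown, against 0.0064 over all genes. It was 0.023 after FAM60A knockdown, against -0.023 over all genes. By probe set, 24 of the 26 were bright enough to test, reaching log2 5 on 3 or more of the 12 arrays. Of these 24, 7 rose and 2 fell after SDS3 knockdown, against 11.0% and 13.2% of all 48286 probe sets tested (24.2% in either direction). Both that fell were those of the targeted SUDS3. After FAM60A knockdown 5 rose and 3 fell, against 14.8% and 12.1% (26.9% in either direction). Of those 3, 2 were of the targeted SINHCAF and 1 of BRMS1. The median log2 change of the 24 was 0.085 after SDS3 knockdown, against 0.0081 over all probe sets, and 0.048 after FAM60A knockdown, against -0.020. The 2 dim probe sets were 238189_at of SIN3A, which averaged 4.25 in SDS3 knockdown cells against 4.17 in their controls, and 224322_at of ARID4B, which averaged 2.81 against 2.89.

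**Figure D1:**
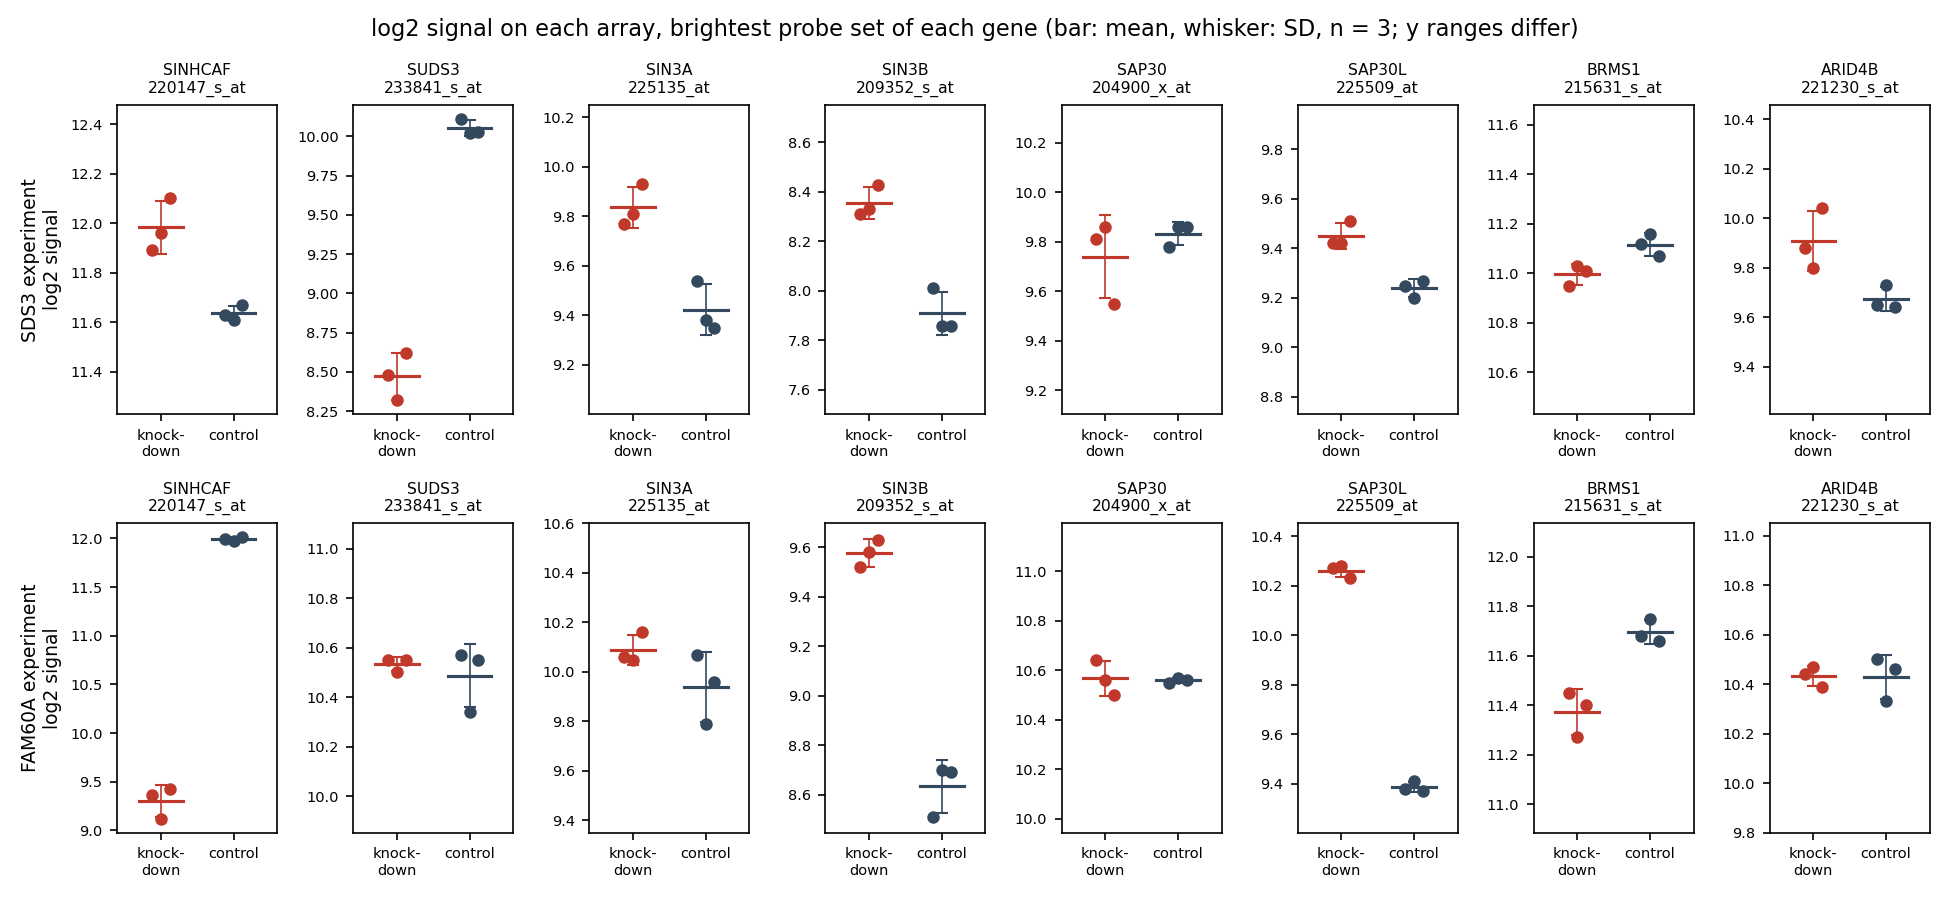
log2 signal (y axis, own range in each panel) of the brightest probe set of 8 genes on each of 12 arrays, with the SDS3 experiment above and the FAM60A experiment below; points are arrays, the bar is the mean and the whisker the SD (n = 3). SINHCAF, SIN3B, SAP30L and BRMS1 knockdown arrays lie apart from their controls in both rows, while SAP30 arrays overlap in both.

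Each siRNA lowered its own target. SUDS3, which helps hold the deacetylase activity of the complex together, read 8.48, 8.32 and 8.62 in SDS3 knockdown cells, against 10.11, 10.02 and 10.03 in their controls (probe set 233841_s_at). The groups lay 1.40 apart at their closest. This left 33.4% of the control level (log2 change -1.58, SE 0.0813, n = 3, limma adjusted p = 7.23e-06). The other probe set of SUDS3, 224974_at, read 7.73, 7.63 and 7.61 in SDS3 knockdown cells against 9.02, 9.08 and 9.14 in controls, leaving 37.2%. SINHCAF read 9.36, 9.12 and 9.43 in FAM60A knockdown cells, against 11.99, 11.97 and 12.01 in their controls (220147_s_at), which left 15.5% (log2 change -2.69, SE 0.0814, limma adjusted p = 8.83e-08). Its other probe set, 223038_s_at, read 6.63, 7.02 and 6.37 against 9.07, 9.21 and 9.34, leaving 17.2%. Both probe sets of each target thus separated the groups completely in its own experiment.

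The target of one experiment was also read in the other. SINHCAF read 11.89, 11.96 and 12.10 in SDS3 knockdown cells, against 11.63, 11.61 and 11.67 in controls. All 3 knockdown arrays were higher, by 1.27-fold on average (log2 change 0.35, SE 0.0683, limma adjusted p = 0.00596), and the mean of both SINHCAF probe sets was at 0.20 (limma adjusted p = 0.0493). The dimmer SINHCAF probe set did not pass, averaging 8.08 ± 0.0874 in SDS3 knockdown cells and 8.02 ± 0.25 in controls (SD, n = 3 each), and there the groups overlapped (log2 change 0.056, limma adjusted p = 0.787). SUDS3 read 10.55, 10.50 and 10.55 in FAM60A knockdown cells, against 10.57, 10.34 and 10.55 in controls (log2 change 0.040, SE 0.0734, limma adjusted p = 0.743). Its groups overlapped there, as they did for 224974_at, which read 9.65, 9.48 and 9.15 against 9.81, 9.37 and 9.93 (log2 change -0.28, limma adjusted p = 0.225).

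Of the scaffolds, SIN3B was higher in both knockdowns. It read 8.31, 8.33 and 8.43 in SDS3 knockdown cells, against 8.01, 7.86 and 7.86 in controls (209352_s_at). Every knockdown array was above every control, and the rise was 1.36-fold (log2 change 0.45, SE 0.0674, n = 3, limma adjusted p = 0.00157). In FAM60A knockdown cells it read 9.52, 9.58 and 9.63, against 8.51, 8.70 and 8.69 in controls. The gap between the groups was 0.82, and the rise was 1.92-fold (log2 change 0.94, SE 0.071, limma adjusted p = 9.98e-06). A second probe set, 39705_at, rose too, 1.46-fold after SDS3 knockdown (8.28, 8.37 and 8.41 against 7.79, 7.84 and 7.78 in controls). After FAM60A knockdown it rose 1.75-fold, with 9.28, 9.29 and 9.36 against 8.42, 8.53 and 8.56 in controls. The third and dimmest, 242129_at, did not pass: its log2 change was 0.17 after SDS3 knockdown (limma adjusted p = 0.0979) and -0.095 after FAM60A knockdown (limma adjusted p = 0.362). Averaged over its 3 probe sets, the gene's log2 change was 0.39 after SDS3 knockdown and 0.55 after FAM60A knockdown, and both passed.

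SIN3A, the other scaffold, rose after SDS3 knockdown in all 3 probe sets tested. The brightest read 9.77, 9.81 and 9.93 in SDS3 knockdown cells, against 9.54, 9.38 and 9.35 in controls (225135_at; log2 change 0.42, SE 0.073, n = 3, limma adjusted p = 0.00347). All knockdown arrays exceeded all controls, a rise of 1.33-fold. The widest separation was that of 238005_s_at, with 10.08, 10.10 and 10.06 in SDS3 knockdown cells against 9.51, 9.55 and 9.46 in controls, or 1.48-fold (limma adjusted p = 0.000161). 238006_at read 8.02, 7.93 and 7.98 against 7.68, 7.81 and 7.64, a log2 change of 0.27 (limma adjusted p = 0.0179). After FAM60A knockdown 1 of the 3 passed. 238005_s_at read 9.85, 9.80 and 9.78 in FAM60A knockdown cells, against 9.54, 9.59 and 9.56 in controls (log2 change 0.25, SE 0.0569, limma adjusted p = 0.00864). 225135_at overlapped there, at 10.06, 10.05 and 10.16 against 10.07, 9.79 and 9.96 in controls (log2 change 0.15, limma adjusted p = 0.201). 238006_at overlapped as well (log2 change 0.078, limma adjusted p = 0.47).

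SAP30L and SAP30, related adaptors that bind the scaffold and can contact DNA, differed in what passed. The brightest SAP30L probe set, 225509_at, read 9.42, 9.42 and 9.51 in SDS3 knockdown cells, against 9.25, 9.20 and 9.27 in controls. The groups were 0.15 apart and the rise was 1.16-fold (log2 change 0.21, SE 0.0576, n = 3, limma adjusted p = 0.0283), a call lost when any 1 of the 6 arrays was left out (limma adjusted p from 0.0526 to 0.105). In FAM60A knockdown cells it read 10.27, 10.28 and 10.23, against 9.38, 9.41 and 9.37 in controls. Here the gap was 0.82 and the rise 1.84-fold (log2 change 0.88, SE 0.0559, limma adjusted p = 3.74e-06). The second brightest SAP30L probe set, 219129_s_at, read 8.78, 8.73 and 8.79 in SDS3 knockdown cells against 8.87, 8.90 and 8.93 in controls, all lower but not passing (log2 change -0.14, limma adjusted p = 0.112). In FAM60A knockdown cells it read 10.16, 10.21 and 10.21 against 9.70, 9.83 and 9.76, a rise of 1.35-fold (limma adjusted p = 0.000505). The other 4 SAP30L probe sets did not pass in either knockdown, with log2 changes from -0.23 to 0.21 after SDS3 knockdown and from 0.021 to 0.15 after FAM60A knockdown. Averaged over its 6 probe sets, the SAP30L change was 0.017 after SDS3 knockdown (limma adjusted p = 0.825) and 0.26 after FAM60A knockdown (limma adjusted p = 0.00476).

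SAP30 did not pass in any of 4 probe sets in either knockdown. Its brightest, 204900_x_at, read 9.81, 9.86 and 9.55 in SDS3 knockdown cells, against 9.78, 9.86 and 9.86 in controls (log2 change -0.093, SE 0.0855, limma adjusted p = 0.499). In FAM60A knockdown cells it read 10.64, 10.56 and 10.50, against 10.55, 10.57 and 10.56 in controls (log2 change 0.0066, SE 0.0607, limma adjusted p = 0.955). The groups overlapped in both experiments. Over all 4 probe sets the log2 changes ran from -0.16 to 0.0066 after SDS3 knockdown and from -0.14 to 0.034 after FAM60A knockdown.

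The bases just upstream of the starts of SIN3A, SAP30L and SAP30 are shown so that a scaffold and both related adaptors described above can be compared by sequence. Their changes were not tested against each other. They come from RefSeq, build GRCh38.p14: the 250 bases before the annotated start on the gene's own strand, at chr15:75455816-75456065 (minus strand), chr5:154445747-154445996 (plus strand) and chr4:173370704-173370953 (plus strand). Capitals mark matches on either strand to the GC box, GGGCGG. They also mark the CCAAT box, spelled as its name. The E-box CACGTG, bound by MYC, MAX and MXD factors of which MXD proteins recruit SIN3, was searched as well.
SIN3A: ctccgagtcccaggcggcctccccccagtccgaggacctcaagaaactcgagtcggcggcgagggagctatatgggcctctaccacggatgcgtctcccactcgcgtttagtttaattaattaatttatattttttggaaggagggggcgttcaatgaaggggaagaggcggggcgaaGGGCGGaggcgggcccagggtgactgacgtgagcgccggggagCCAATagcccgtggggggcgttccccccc
SAP30L: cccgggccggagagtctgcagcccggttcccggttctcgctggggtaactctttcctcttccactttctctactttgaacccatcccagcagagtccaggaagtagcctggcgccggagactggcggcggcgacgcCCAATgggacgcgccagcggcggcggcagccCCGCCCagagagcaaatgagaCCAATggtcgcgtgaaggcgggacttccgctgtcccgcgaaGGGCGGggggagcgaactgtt
SAP30: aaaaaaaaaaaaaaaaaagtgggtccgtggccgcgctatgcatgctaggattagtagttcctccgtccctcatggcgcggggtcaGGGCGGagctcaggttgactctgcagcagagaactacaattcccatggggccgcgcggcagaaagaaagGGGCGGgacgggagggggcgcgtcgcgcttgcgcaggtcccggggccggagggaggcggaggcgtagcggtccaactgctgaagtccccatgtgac
The SAP30L window held 2 GC boxes and 2 CCAAT boxes, the SIN3A window 1 of each, and the SAP30 window 2 GC boxes and 0 CCAAT boxes. None of the 3 held CACGTG. No matches overlapped. Of 35114 windows of this length in the RefSeq table, 42.6% held a GC box, 32.0% a CCAAT box and 6.35% an E-box. A match is a description of the letters and shows no binding. A second window listed for SIN3A, which held 4 GC boxes and 3 CCAAT boxes, lies inside the annotated gene and is not printed. The window listed for SIN3B likewise lies inside the annotated gene, away from its outer start, and is not printed.

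BRMS1, a relative of SUDS3 first described as a suppressor of breast cancer metastasis, had 1 probe set, 215631_s_at. It read 10.95, 11.03 and 11.01 in SDS3 knockdown cells, against 11.12, 11.16 and 11.07 in controls. All knockdown arrays were lower, by a small margin that did not pass (log2 change -0.12, SE 0.0578, limma adjusted p = 0.166). It did pass with the arrays scaled to 30 bacterial control probe sets (-0.30, limma adjusted p = 0.0252). These were the hybridisation controls and part of those for Bacillus transcripts. In FAM60A knockdown cells it read 11.45, 11.27 and 11.40, against 11.68, 11.75 and 11.66 in controls. This was a fall to 80.0% of control with no overlap (log2 change -0.32, SE 0.0663, n = 3, limma adjusted p = 0.00495).

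ARID4B, which carries Tudor, chromo and ARID domains, did not pass in any of its 3 tested probe sets. The brightest, 221230_s_at, read 9.88, 9.80 and 10.04 in SDS3 knockdown cells, against 9.65, 9.73 and 9.64 in controls. The knockdown arrays were all higher, yet the adjusted p was just over the threshold (log2 change 0.23, SE 0.0733, limma adjusted p = 0.0512). In FAM60A knockdown cells it read 10.44, 10.47 and 10.39, against 10.50, 10.33 and 10.46 in controls, with overlap (log2 change 0.0033, limma adjusted p = 0.979). A pair of further probe sets is annotated to both ARID4B and the neighbouring gene RBM34 and was kept out of the counts. Both fell in both knockdowns: 212591_at by 0.35 on the log2 scale after SDS3 knockdown (limma adjusted p = 0.00277) and by 0.26 after FAM60A knockdown (limma adjusted p = 0.0105), and 214943_s_at by 0.37 in each (limma adjusted p = 0.00502 and 0.00443). Which of the 2 genes they read was not tested.

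**Figure D2:**
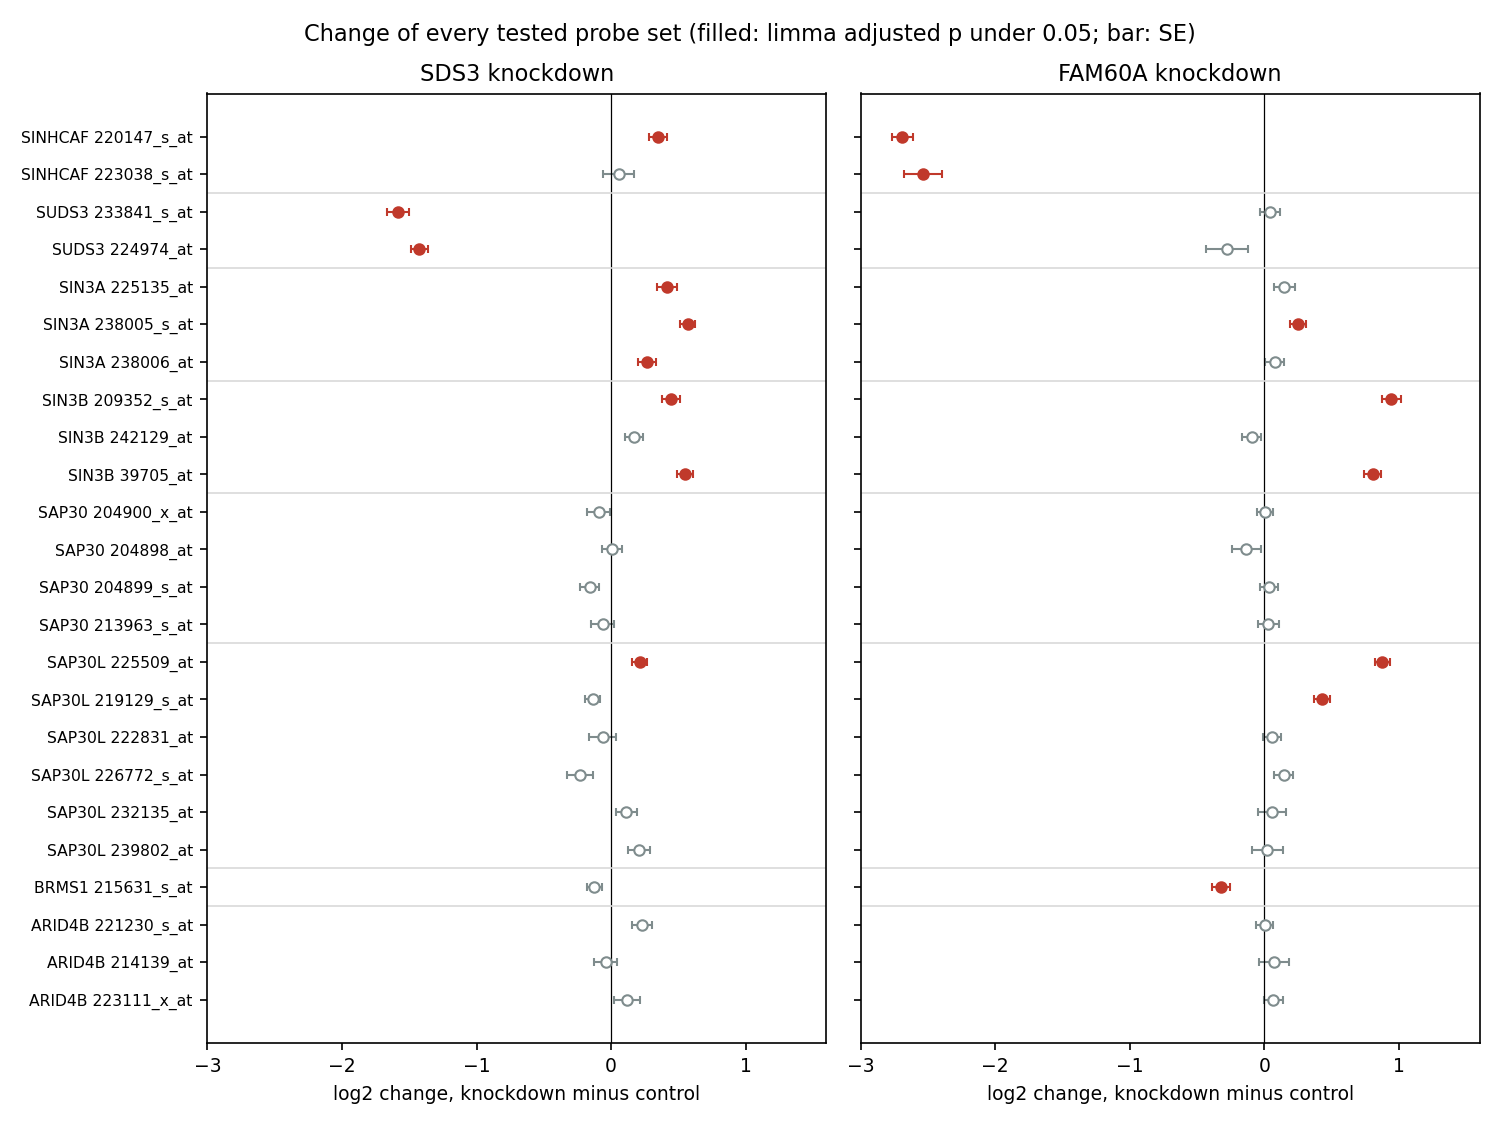
log2 change (x axis, knockdown minus control) of the 24 tested probe sets, SDS3 knockdown left and FAM60A knockdown right; points are limma estimates from 3 against 3 arrays, bars are SE, and filled points passed at an adjusted p under 0.05. All 3 SIN3A probe sets are filled on the left and 1 on the right, and SAP30L has 1 filled point on the left and 2 on the right.

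The knockdowns were then set against each other, taking the SDS3 change minus the FAM60A change in a fit of all 12 arrays. Each knockdown was its own experiment, and SUDS3 was left at 33.4% of control but SINHCAF at 15.5%. The gene targeted, the experiment and the depth of knockdown therefore cannot be told apart in this contrast. Of the 8 genes 4 differed, against 21.3% of all genes, and SUDS3 and SINHCAF, the targets, were among them. In this contrast 1 gene was higher (7.87% of all genes) and 3 were lower (13.5%). Of the 24 probe sets 3 were higher and 6 lower, against 6.28% and 10.6% of all probe sets (16.9% in either direction). The targets held 2 of the 3 (SINHCAF) and 2 of the 6 (SUDS3), so these counts partly restate the knockdowns. By its brightest probe set SAP30L rose less after SDS3 knockdown, a difference of -0.66 (SE 0.074, limma adjusted p = 3.8e-05). The change of that probe set was 0.21 after SDS3 knockdown and 0.88 after FAM60A knockdown. A rise after SDS3 knockdown was not seen in the mean of the SAP30L probe sets (0.017, limma adjusted p = 0.825). A difference below 0 passed for 3 of its probe sets, the others being 219129_s_at (-0.57, limma adjusted p = 0.00018) and 226772_s_at (-0.38, limma adjusted p = 0.0483). Both of these others read lower, not higher, after SDS3 knockdown (log2 change -0.14 and -0.23), without passing there (limma adjusted p = 0.112 and 0.116). The mean of all 6 gave -0.25 (limma adjusted p = 0.0251). SIN3B also rose less after SDS3 knockdown, 0.45 against 0.94, a difference of -0.50 (SE 0.0986, limma adjusted p = 0.00326). That difference did not pass for 39705_at (-0.26, limma adjusted p = 0.0522) or for the mean of the SIN3B probe sets (-0.16, limma adjusted p = 0.0943). The third SIN3B probe set, 242129_at, had the opposite sign and did not pass (0.27, limma adjusted p = 0.0714). The SIN3A change was larger after SDS3 knockdown for 238005_s_at, 0.57 against 0.25, a difference of 0.32 (SE 0.0734, limma adjusted p = 0.0083). For its brightest probe set the difference was 0.27 and did not pass (SE 0.11, limma adjusted p = 0.12). For BRMS1 (0.20, SE 0.0856, limma adjusted p = 0.139), ARID4B (0.23, SE 0.097, limma adjusted p = 0.13) and SAP30 (-0.10, SE 0.106, limma adjusted p = 0.578) the difference did not pass either, which does not show that the changes were alike.

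**Figure D3:**
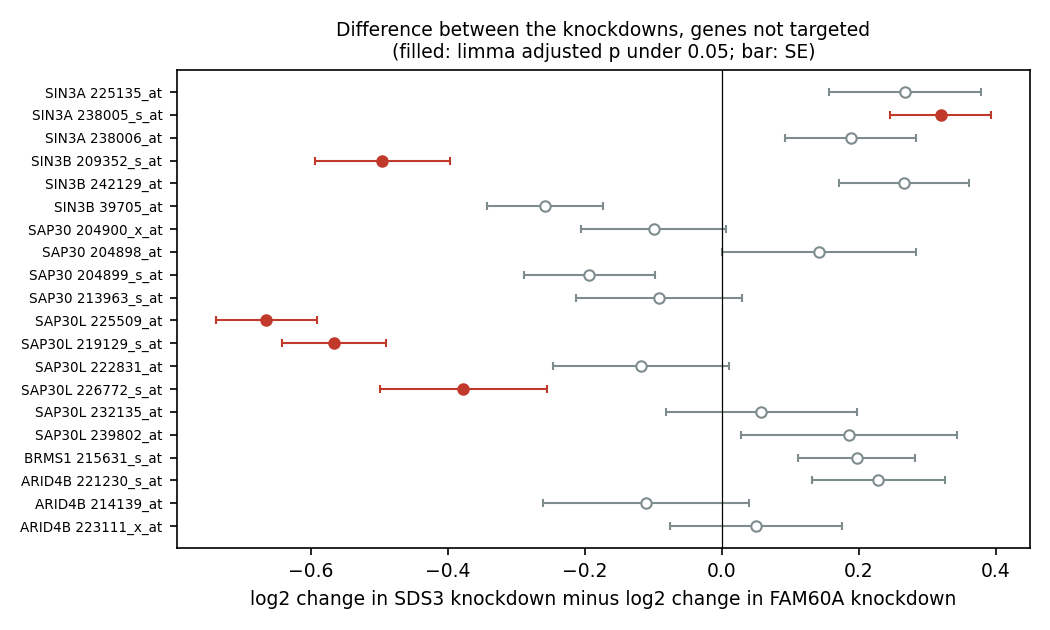
Difference in log2 change (x axis, SDS3 knockdown minus FAM60A knockdown) for the 20 tested probe sets of the 6 genes not targeted; points are limma estimates over 12 arrays, bars are SE, and filled points passed at an adjusted p under 0.05. The filled points of SAP30L and SIN3B lie below 0, and the filled point of SIN3A lies above it.

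RMA, the authors' normalization, brings the arrays it handles to one distribution, so these changes are relative to the bulk of transcripts. The array's control probe sets for Bacillus transcripts, which read RNAs spiked in before labelling where a laboratory adds them, stood 0.32 higher (log2) in SDS3 knockdown than in control arrays (two-sided exact permutation p = 0.1, which is the lowest value possible with 3 arrays a group). In FAM60A knockdown they stood 0.10 higher (exact permutation p = 0.5). The hybridisation controls moved by 0.078 and -0.059 (exact permutation p = 0.3 and 0.4), and the 18S ribosomal RNA probe sets stood 0.53 and 0.28 higher (exact permutation p = 0.1 for each). The arrays were also scaled to the Bacillus probe sets, an alternative chosen after seeing the data. The median log2 change of all genes was then -0.32 after SDS3 knockdown and -0.12 after FAM60A knockdown, against 0.0064 and -0.023 on the deposited scale. Over all genes it gave 454 higher and 8235 lower calls after SDS3 knockdown, against 2504 and 3084 with the deposited scale, and 1228 higher and 1934 lower after FAM60A knockdown, against 3240 and 2824. Under this scaling the FAM60A calls stood: SIN3B at 0.84, SAP30L at 0.78 and BRMS1 at -0.42 all passed. The SDS3 rises did not: SIN3A was at 0.093 (limma adjusted p = 0.574), SIN3B at 0.12 (limma adjusted p = 0.454), SINHCAF at 0.027 (limma adjusted p = 0.871) and SAP30L at -0.11 (limma adjusted p = 0.502), while SAP30 (-0.42) and BRMS1 (-0.45) passed as lower. The differences of SIN3B (-0.72) and SAP30L (-0.89) between the knockdowns passed under it.

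**Figure D4:**
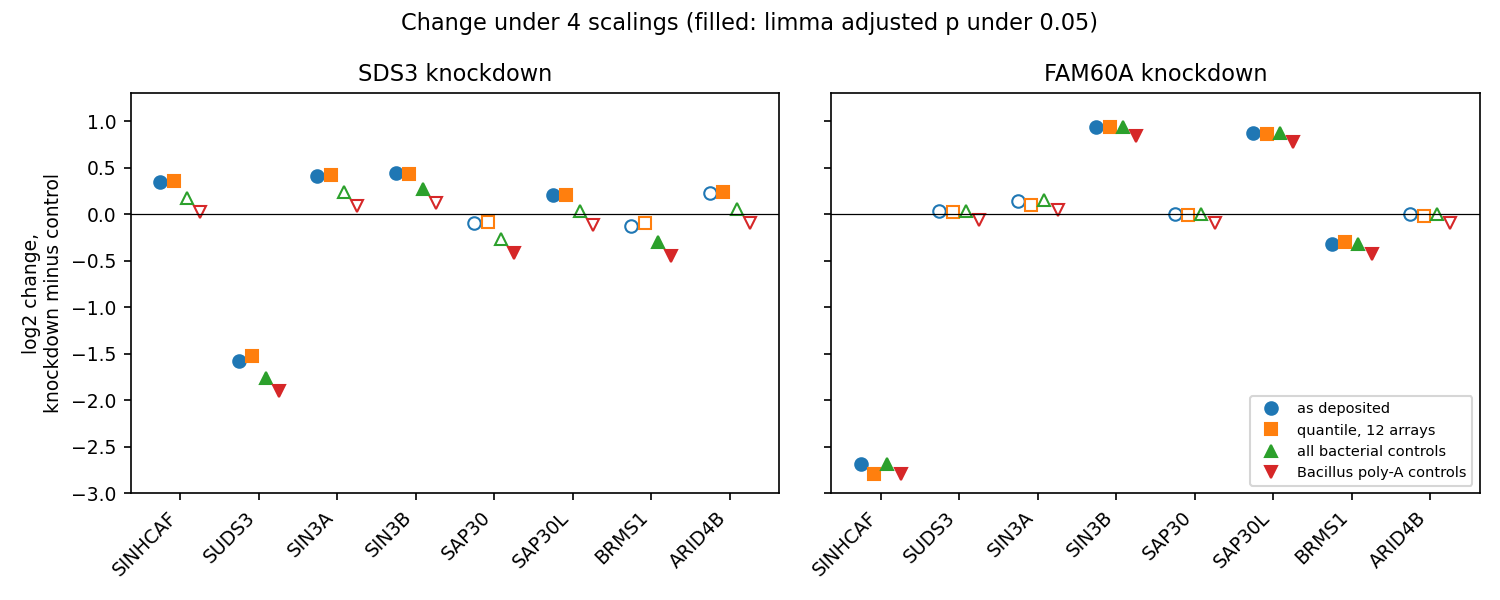
log2 change (y axis, knockdown minus control) of the brightest probe set of 8 genes under the deposited scale, quantile normalization of 12 arrays, scaling to 30 bacterial control probe sets and scaling to the Bacillus probe sets. The 30 are labelled all bacterial controls in the figure but leave out part of the Bacillus probe sets. Filled symbols passed limma at an adjusted p under 0.05. SIN3B and SAP30L lie between 0.78 and 0.94 after FAM60A knockdown (right), while after SDS3 knockdown (left) SINHCAF, SIN3A and SIN3B lie nearer 0 under both control scalings, and SAP30L and ARID4B turn negative under the Bacillus one.

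The other partners of the complex were taken from a list of 18 genes, 17 with a probe set. By brightest probe set 2 rose and 3 fell after SDS3 knockdown, and 1 rose and 3 fell after FAM60A knockdown. That is 5 of 17 after SDS3 knockdown and 4 of 17 after FAM60A knockdown, beside 30.0% and 32.6% of all genes. The median change was -0.011 after SDS3 knockdown and -0.054 after FAM60A knockdown. HDAC1, HDAC2, RBBP4 and RBBP7, the deacetylase core and its histone chaperones, were named after their values were seen. They did not pass in either knockdown by this probe set, with log2 changes from -0.21 to 0.084. Dimmer probe sets did pass after FAM60A knockdown. For HDAC2, 242141_at rose by 0.21 (limma adjusted p = 0.0183). For RBBP4, 225396_at fell by 0.20 and 244872_at by 0.29 (limma adjusted p = 0.0299 and 0.00675). None of their probe sets passed after SDS3 knockdown. TET1, a 5-methylcytosine dioxygenase that binds SIN3A, fell by 0.95 after SDS3 knockdown (limma adjusted p = 0.000678) and by 0.70 after FAM60A knockdown (limma adjusted p = 4.98e-05). Its dimmer probe set went the other way, with 0.38 and 0.41, both passing, so the direction of TET1 is not settled. FOXK1, a forkhead factor that recruits SIN3, fell by 0.37 after SDS3 knockdown and by 0.33 after FAM60A knockdown (limma adjusted p = 0.00289 and 0.00234). Of its 4 probe sets 1 passed after SDS3 knockdown and 2 after FAM60A knockdown, and 235519_at (0.043 and 0.026) and 236011_at (0.0068 and 0.0064) did not. PHF12, a zinc finger subunit of the complex with MORF4L1, rose by 0.30 and 0.44 (limma adjusted p = 0.0114 and 0.000805), in 1 of its 2 probe sets. ING2, a reader of methylated histone H3, fell by 0.36 after SDS3 knockdown (limma adjusted p = 0.00277) and was at 0.17 after FAM60A knockdown (limma adjusted p = 0.055), and this difference passed (-0.53, SE 0.0804, limma adjusted p = 0.000436). The other ING2 probe set, 213544_at, fell by 0.32 after SDS3 knockdown (limma adjusted p = 0.0428) and was at 0.015 after FAM60A knockdown. Its difference did not pass (-0.34, limma adjusted p = 0.078). KDM5A, an H3K4 demethylase, was chosen after its values were seen. Its brightest probe set did not pass, with log2 changes of -0.061 after SDS3 knockdown and 0.031 after FAM60A knockdown. Of its 5 probe sets 4 passed as higher after SDS3 knockdown and 3 after FAM60A knockdown. The largest rise was that of 226371_at, by 1.23 after SDS3 knockdown (limma adjusted p = 8.75e-06) and by 1.06 after FAM60A knockdown (limma adjusted p = 7.56e-06).

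Genes with the pattern most like those of SIN3B and SAP30L were named by Pearson correlation over the 12 arrays, after the mean of its own controls was subtracted from each array. The arrays fall into separate clusters by knockdown, so r reflects little more than the ratio of the changes and is given as a description. For SIN3B these were the long non-coding RNA LINC-PINT (r = 0.994; log2 change 0.38 after SDS3 and 0.93 after FAM60A knockdown), the cytochrome oxidase assembly gene SURF1 (r = 0.993; 0.21 and 0.50) and the mitochondrial kinase gene PINK1 (r = 0.99; 0.42 and 1.01). For SAP30L they were IQCK (r = 0.997; 0.34 and 1.55), the major vault protein gene MVP (r = 0.996; 0.19 and 0.78) and PMEPA1 (r = 0.996; 0.27 and 1.21), an inhibitor of TGF-beta signalling.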

How the data were processed

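Per the submitters' processing notes, the authors made the deposited probe set intensity values with RMA, with no version or settings given. The values are linear, and the deposited intensity was turned into log2 here; the design had assumed log2 values, and no other step changed. Every per-sample column was used. Biotin-labelled RNA came from 1 ug of total RNA per sample, per the labels. Of 54675 probe sets, 62 array controls were left out. The platform annotation gives 1 gene for 41097 probe sets, several for 1801 and none listed for 11777; symbols were updated through RefSeq (GRCh38.p14), which matched 41043. The 48286 probe sets that reached log2 5 on 3 or more of the 12 arrays were tested. The tests used lmFit and eBayes of limma 3.58.1, run in R 4.3.3 (two-sided, Benjamini-Hochberg over all tested, threshold 0.05). Each knockdown was fitted with its own controls, 6 arrays. A gene was its probe set with the highest mean over 12 arrays. The fits were tested on simulated data. Named genes were all members, up to 3 passing partners with the largest change per knockdown, and the 3 genes of most similar pattern. Members and lists were chosen with earlier results of these data known. The number of arrays limits the precision.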

Additional observations from a re-analysis of the deposited data

Results flagged for a closer look

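The change of 4 member genes differed between the knockdowns in a test of the difference itself (limma contrast over 12 arrays, SDS3 change minus FAM60A change). SINHCAF had a difference of 3.04 and SUDS3 of -1.62, each being the target in one experiment. SAP30L had -0.66 and SIN3B -0.50, so by their brightest probe sets both rose by less after SDS3 knockdown. For SAP30L the difference also passed for 219129_s_at and 226772_s_at, which did not rise after SDS3 knockdown (log2 change -0.14 and -0.23). For SIN3B no other probe set passed: 39705_at was at -0.26 (limma adjusted p = 0.0522) and 242129_at at 0.27 (limma adjusted p = 0.0714). Groups of 3 arrays are too small for a test of single outlying arrays.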

How the results depend on the processing

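Brightest-probe-set calls were recomputed under each alternative. After FAM60A knockdown the count of 4 passing member genes ran from 3 to 5, and was 4 without each array in turn. After SDS3 knockdown the count of 5 became 3 with scaling to the 30 bacterial controls, 3 with scaling to the Bacillus probe sets (chosen after seeing the data) and 1 with a minimum change of 1.5-fold, and ran from 4 to 6 under the rest (4 to 5 without each array). The count of 4 differing genes ran from 3 to 5, and from 4 to 5 without each array. With the 30 bacterial controls SIN3A (0.24), SINHCAF (0.17) and SAP30L (0.036) did not pass after SDS3 knockdown, SIN3B (0.27, limma adjusted p = 0.0469) did, and BRMS1 passed as lower (-0.30, limma adjusted p = 0.0252). ARID4B passed after SDS3 knockdown with quantile normalization (limma adjusted p = 0.0253), a filter at log2 7, all 12 arrays in 1 fit, a variance trend or without SDS3 knockdown replicate 2 (limma adjusted p = 0.0361). SIN3A passed after FAM60A knockdown as the mean of its probe sets (0.16). Its difference between the knockdowns passed with quantile normalization (0.32), array weights (0.30), the mean of probe sets (0.26) and without FAM60A control replicate 2 (0.34).

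Signs turned for these results, and none of them passed where they turned. For FAM60A knockdown, quantile normalization gave SAP30 -0.0090 and ARID4B -0.020, Bacillus scaling gave SUDS3 -0.061, SAP30 -0.094 and ARID4B -0.097, array weights gave ARID4B -0.022, the mean of probe sets gave SUDS3 -0.12 and SAP30 -0.016, and leaving out _s_at and _x_at probe sets gave SUDS3 -0.28 and SAP30 -0.14. For SDS3 knockdown, Bacillus scaling gave SAP30L -0.11 and ARID4B -0.091, and leaving out _s_at and _x_at gave SAP30 0.0066 and ARID4B -0.041. For the difference, these settings gave BRMS1 -0.025 (Bacillus), SAP30 0.14 and ARID4B -0.11. Without each array in turn the FAM60A change of SUDS3 ran from -0.035 to 0.083, of SAP30 from -0.031 to 0.041 and of ARID4B from -0.044 to 0.037, and the SDS3 change of SAP30 from -0.15 to 0.00036. The cause was not tested.

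Replicate numbers are shared between groups, but same-numbered arrays deviated together with correlations from -0.138 to 0.0185, so they were not taken as pairs. With the replicate block the counts were 4 after FAM60A knockdown, 4 after SDS3 knockdown, where SAP30L no longer passed (limma adjusted p = 0.0591), and 4 for the difference. Over all genes, 2504 higher and 3084 lower calls after SDS3 knockdown became 965 and 5678 with the 30 bacterial controls, 1541 and 2026 at an adjusted p under 0.01, and 604 and 692 at 1.5-fold. After FAM60A knockdown 3240 and 2824 became 2230 and 1674 with those controls and 896 and 471 at 1.5-fold. For the difference, 1465 and 2508 became 310 and 3026 with those controls, 162 and 1970 with the Bacillus ones, 716 and 1513 at 0.01, and 337 and 757 at 1.5-fold. Detection calls were not used here, so dim probe sets were judged by level alone.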
